A study of Caenorhabditis elegans with 51 samples.

Results

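The 3 RNA sequencing libraries of *prdx-2* worms were set directly against the 3 libraries labelled *ctl-1*, 6 of the 51 samples of the series, chosen by genotype label and not by any measured value. PRDX-2 is a peroxiredoxin and the *ctl* genes encode catalases, so by its labels the comparison sets a mutant of one hydrogen peroxide removing enzyme against a mutant of another, with no wild-type library as reference. The libraries came from whole *Caenorhabditis elegans*, collected as young adults before fertile eggs appeared and grown at 20 °C on NGM plates with OP50 bacteria. Each was made from messenger RNA of a separate biological replicate of one mutant strain, and no treatment was applied to either group. The alleles carried by the *prdx-2* and *ctl-1* strains and their outcrossing are not given in the sources used here, nor is it stated whether each genotype rests on more than 1 isolate. The same table holds 6 wild-type and 3 *sod-1* libraries. Wild-type levels are given below for many genes as a scale for the 6 compared, and *sod-1* levels for a few. The wild-type and *sod-1* libraries and those of *clk-1*, *nuo-6*, *isp-1* and *daf-2* mutants in the table also entered the limma fit. Each SE and limma p-value below therefore rests on the spread within all these genotypes, not within the 6 libraries alone.

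Hydrogen peroxide is formed when superoxide is dismutated and by several oxidases. Peroxiredoxins reduce it through a reactive cysteine that is recycled by thioredoxin, act at low peroxide concentrations and also pass the oxidation on to other proteins, whereas catalases contain heme, need no reductant and are suited to high concentrations, mostly in peroxisomes. In *C. elegans* PRDX-2 is the abundant cytosolic peroxiredoxin, *ctl-1* encodes a cytosolic catalase, *ctl-2* the peroxisomal catalase, and *ctl-3* another copy, the 3 genes lying side by side. A common transcriptional response to oxidants and electrophiles in this animal is carried by SKN-1, the NRF2 homologue, which is restrained by WDR-23 and activated through the p38 kinase cascade that contains SEK-1, and whose targets include glutathione S-transferases and the enzyme that limits glutathione synthesis.

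Values are CPM (the share of a library's reads that fell on a gene, scaled to 1000000 reads after TMM correction of the library size), as deposited. Where 3 values stand against 3, the first are the libraries labelled *ctl-1* and the second the *prdx-2* libraries, each in the order of replicates 1 to 3. The *prdx-2* transcript (chromosome II, 5378195 to 5379631, WBcel235) was measured at 633, 487 and 428 normalized CPM in the 3 libraries labelled *ctl-1* and at 71.3, 62.8 and 58.7 in the 3 *prdx-2* libraries. The groups were far apart, and wild-type libraries ranged from 469.7 to 824. The log2 difference, *prdx-2* minus labelled *ctl-1*, on the scale of log2(normalized CPM + 0.5), was -2.98 (SE 0.19, limma adjusted p = 7.79e-14). Reads of the gene were thus fewer in the *prdx-2* libraries but not absent.

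The *ctl-1* transcript did not separate the groups. A label names a mutated gene and need not mean fewer reads of it, and the allele is not given. It was measured at 1.93, 2.23 and 2.98 normalized CPM in the libraries labelled *ctl-1*, at 3.31, 3.07 and 2.93 in the *prdx-2* libraries and at 1.78 to 2.8 in wild-type worms. The labelled libraries lay in or just above the wild-type range, and the difference was 0.34 (SE 0.31, limma adjusted p = 0.798). The gene nearly without reads in those libraries was *ctl-3*, which lies beside it. *ctl-3* was measured at 0.0344, 0.0323 and 0.035 normalized CPM there, which is 1 read in each library, and at 12.9, 11.5 and 12.6 in the *prdx-2* libraries, against 3.47 to 6.18 in wild-type worms. Over the groups this is 3 reads against 1011, a ratio of 363 at the scale of normalized CPM with a 95% counting interval of 124 to 1764, which covers counting error only (limma adjusted p = 1.18e-15). *ctl-3* in *prdx-2* worms also lay above every wild-type library. *ctl-2*, the most abundant of the family, was measured at 43.8, 59.5 and 83.2 normalized CPM in the labelled libraries and 124, 98.2 and 86.6 in *prdx-2* worms, groups that did not overlap and a difference that was not called (log2 difference 0.75, SE 0.32, limma adjusted p = 0.31). The 3 genes are on the minus strand of chromosome II (*ctl-2* 14299556 to 14302027, *ctl-1* 14303568 to 14306260, *ctl-3* 14307798 to 14310779) and are close copies of each other, and reads that the counting could not assign to 1 copy are not in the table. Since the transcript named by the label was not reduced and its neighbour was, the group is called the libraries labelled *ctl-1* throughout, and each direction below is relative to libraries that lack *ctl-3* reads.

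A gene beyond *ctl-3* on the same arm, Y54G11A.14 (chromosome II, 14318158 to 14321018), went the other way and had the most negative difference of all genes on the scale of log2(normalized CPM + 0.5). It was measured at 34.4, 36.3 and 37.5 normalized CPM in the libraries labelled *ctl-1* and 2.25, 2.47 and 3.73 in the *prdx-2* libraries, which lay beside the wild-type range of 1.79 to 3.57. Its log2 difference was -3.49 (SE 0.19, limma adjusted p = 2.12e-15). Within 1 Mb on either side of *ctl-3*, 18 of 247 measured genes were called, 7.29%, against 2.65% of all genes. Of these calls 14 were higher and 4 lower, *ctl-3* and Y54G11A.14 included. The higher ones also include *gst-14*, *gst-12* and *gst-16*, for which wild-type worms lay with the labelled *ctl-1* libraries (*gst-12* at 1.43 to 2.24 in wild type). The share is therefore not a count of changes in the labelled *ctl-1* strain. Within 1 Mb of *prdx-2*, that gene included, the share was 13 of 395, 3.29%. With 1 strain a group and alleles not given, what else a strain carries near these genes cannot be told apart from its mutation.

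**Figure D1:**
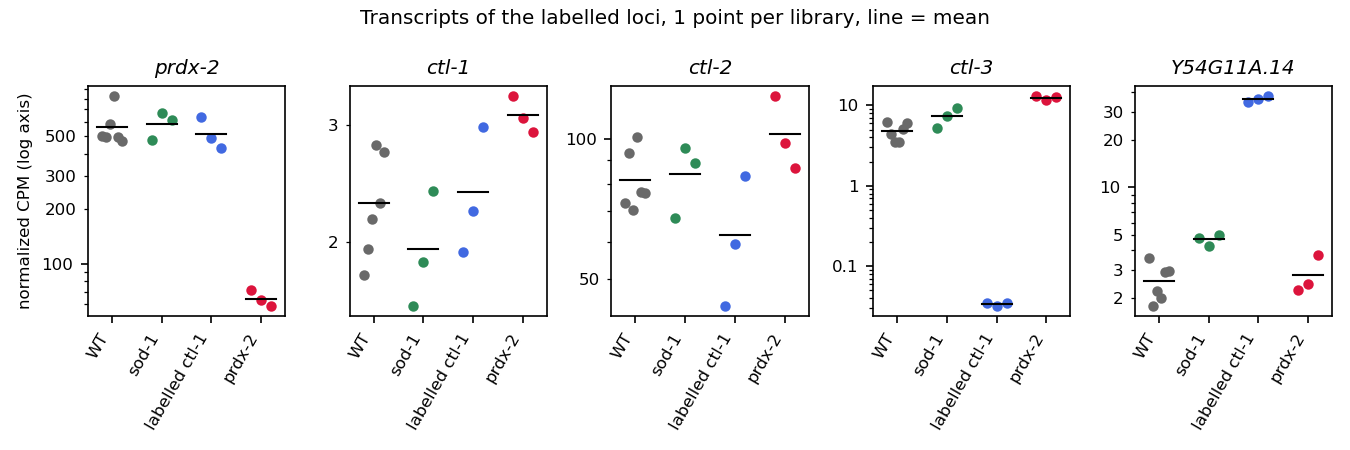
Normalized CPM (log axis) of *prdx-2*, the 3 catalase genes and Y54G11A.14 in 6 wild-type, 3 *sod-1*, 3 labelled *ctl-1* and 3 *prdx-2* libraries, 1 point per library with the group mean as a line. *prdx-2* is at 58.7 to 71.3 only in the *prdx-2* libraries, *ctl-3* is at 0.032 to 0.035 only in the labelled *ctl-1* libraries while *ctl-1* is not reduced there, and Y54G11A.14 is at 34.4 to 37.5 only in the labelled *ctl-1* libraries.

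Of the 6 libraries, 2 stood apart from the other 4 by low sums of hypodermis genes. *prdx-2* replicate 1 correlated more closely with the library labelled *ctl-1* replicate 2 (0.959 over genes, which are not independent replicates) than with *prdx-2* replicates 2 and 3 (0.946 and 0.945). Labelled *ctl-1* replicate 2 did not leave its group in this way, as it correlated at 0.972 with both replicates 1 and 3 of that group. Genes of the hypodermis, the skin that builds the cuticle, summed to 411 normalized CPM in *prdx-2* replicate 1 and 697 in labelled *ctl-1* replicate 2, and to 1439 to 2142 in the other 4 libraries. Vitellogenins, the yolk proteins of the adult intestine, summed to 29299 in *prdx-2* replicate 1, to 5481 to 15835 in the other 5, and to 24959 to 44581 in wild-type libraries. Markers of intestine, body muscle, pharynx, neurons, hypodermis and germline were all present, as whole worms would have, with 9 of 10 to 14 of 14 listed genes measured. Whether fewer cells of a type or less RNA per cell lies behind a lower marker sum cannot be told apart in bulk RNA. The part of these sums in the results was not tested, and the counts over all genes and over the lists with most calls are also given without those 2 libraries, an alternative chosen after seeing the data. Total reads were 23798296 to 26398634 per library, and the 10 genes with most reads took 5.89% to 10.2%.

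**Figure D2:**
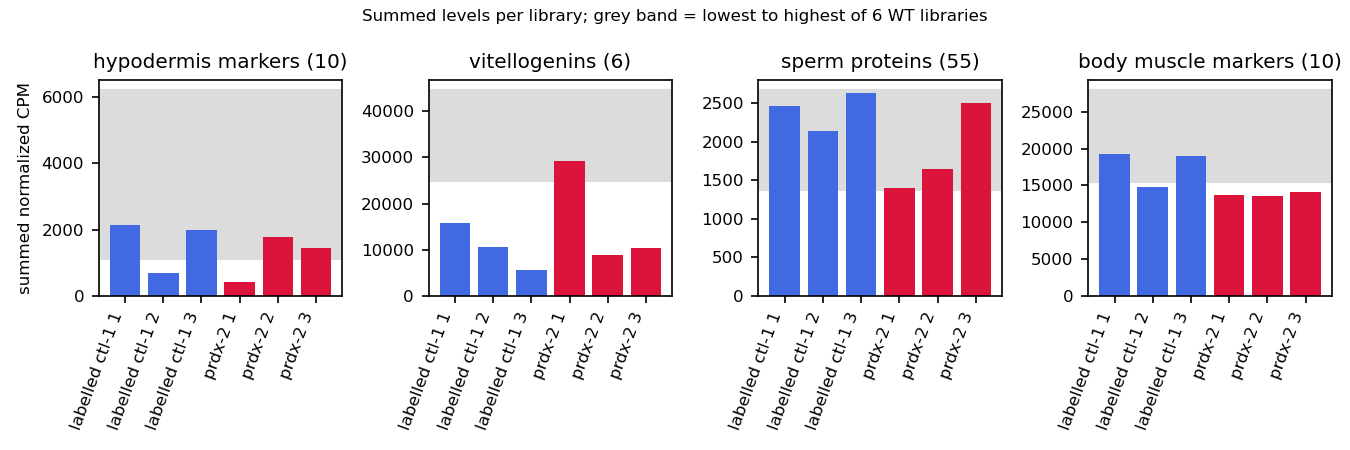
Summed normalized CPM of hypodermis markers, vitellogenins, sperm proteins and body muscle markers in each of the 6 libraries (bars), with the number of genes in parentheses and the range of 6 wild-type libraries as a grey band. *prdx-2* replicate 1 and labelled *ctl-1* replicate 2 have the lowest hypodermis sums, 411 and 697, and *prdx-2* replicate 1 has the highest vitellogenin sum, 29299.

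Across the 14033 genes tested, 309 were higher and 63 lower in *prdx-2* than in the libraries labelled *ctl-1* (limma, Benjamini-Hochberg adjusted p below 0.05), which is 2.2% and 0.449% of all genes, 2.65% together. Of the calls, 83.1% were on the higher side, whereas 47.6% of all genes had a positive difference and the median over all genes was -0.01. The difference was at least 2-fold for 225 of the higher and 46 of the lower genes, and at least 4-fold for 74 and 14. All 3 *prdx-2* libraries lay above all 3 of the others for 1779 genes (12.7%) and below them for 882 (6.29%), of which 306 and 62 were called. The number of calls moved with single libraries. Without labelled *ctl-1* replicate 1 there were 101 higher and 30 lower genes, without *prdx-2* replicate 1 160 and 40, and without *prdx-2* replicates 2 or 3 197 and 40 or 184 and 45. Without both libraries that stood apart there were 121 (0.862% of all genes) and 31 (0.221%), of which 112 and 27 were among the 309 and 63, and the sign of the difference was kept by all 372 genes.

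The wild-type libraries are no part of the difference. The median wild-type level lay nearer to the labelled *ctl-1* mean than to the *prdx-2* mean for 247 of the 309 higher genes, 79.9%, where the share over all genes was 61.8%. For the 63 lower genes it lay nearer to the labelled *ctl-1* libraries for 32 and nearer to the *prdx-2* libraries for 31. The higher genes were thus mostly at the wild-type side in the libraries labelled *ctl-1*, and the lower genes were divided. The *sod-1* libraries gave 239 of 309 and 33 of 63, where the share over all genes was 60.9%. These shares are a description, since all groups entered a single fit.

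**Figure D3:**
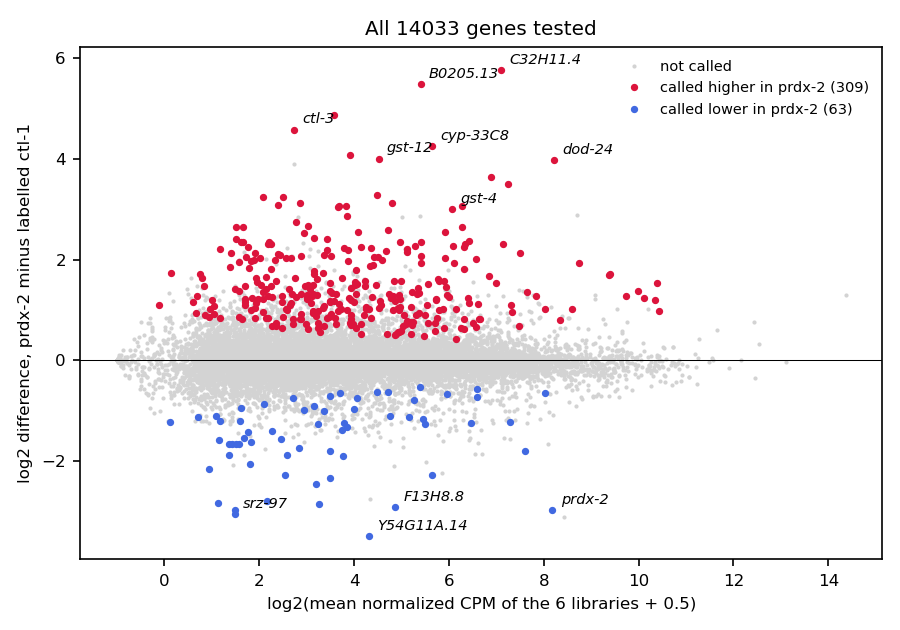
Log2 difference, *prdx-2* minus labelled *ctl-1*, against log2 of the mean of the 6 libraries plus 0.5, for each of the 14033 genes (points); colour marks the 309 genes called higher and the 63 called lower. The points furthest up are C32H11.4 at 5.76 and B0205.13 at 5.49, and the points furthest down are Y54G11A.14 at -3.49 and *srz-97* at -3.06.

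SKN-1 targets made up the list with the largest share of calls. Of 12 target genes taken from general knowledge of the pathway, 8 were higher and none lower in *prdx-2*, 66.7% against the 2.65% of all genes. The median difference was 1.38. The list was chosen with earlier results of these data known, so this share is a description and no independent evidence. Without both libraries that stood apart 6 were called. *gst-4*, a glutathione S-transferase widely used as a reporter of SKN-1, was measured at 13.2, 20.1 and 11.1 normalized CPM in the labelled *ctl-1* libraries and 126, 128 and 104 in the *prdx-2* libraries. All 3 *prdx-2* libraries were far above the highest of the others, and wild-type worms were at 12.4 to 23.1 (log2 difference 3.01, SE 0.44, limma adjusted p = 2.55e-05). The *sod-1* libraries, at 32.4 to 40.5, lay above every wild-type and labelled *ctl-1* library. *gst-7* was at 45.7, 82.8 and 70 against 247, 410.5 and 228 (log2 difference 2.14, SE 0.32), *gst-38* at 2.89, 3.13 and 3.99 against 19.8, 57.1 and 44.1 (3.29, SE 0.41), and *gst-30* at 0.448, 0.774 and 0.596 against 11, 7.02 and 8.94 (3.09, SE 0.33), with no overlap between the groups in any of the 3. *gcs-1*, the rate-limiting enzyme of glutathione synthesis, was at 96.6, 122 and 107 against 175, 248 and 211. The difference was smaller, and so was its SE, which the whole fit sets (0.95, SE 0.12, limma adjusted p = 1.86e-06). Wild-type worms at 104 to 133 lay with the labelled *ctl-1* libraries. The nitrilase *nit-1* was at 8.13, 10.8 and 8.65 against 41.3, 36.9 and 34.8 (1.98, SE 0.43), and *sdz-8* at 5.68, 5.19 and 6.24 against 14.4, 20.3 and 13 (1.38, SE 0.23). *nit-1* overlaps ZK1058.9 on the opposite strand, and the strand setting of the counting is not given in the sources used here, so its reads cannot be told apart from those of its partner. The short-chain dehydrogenase *dhs-8*, at 0.93, 1.26 and 1.12 against 3.69, 5.4 and 2.43 (1.38), was not called without labelled *ctl-1* replicate 1 or without *prdx-2* replicate 2 (1.13 to 1.30).

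The other 4 targets did not pass the test. *gsr-1*, the glutathione reductase, was at 108, 164 and 147 in the labelled *ctl-1* libraries and 195, 224 and 212 in *prdx-2* worms, groups that did not overlap (log2 difference 0.60, limma adjusted p = 0.325). *gst-10* had a difference of 0.88 (adjusted p = 0.554 by limma) and F20D6.11 of 0.32 (adjusted p = 0.552). *aip-1*, an arsenite-inducible gene, overlapped between the groups at 39.6, 43.4 and 23.7 against 37.1, 36.6 and 31.8 (0.03, SE 1.03), where 1 wild-type library reached 256. Summed over the 12 genes, the level was 413, 514 and 468 normalized CPM in the labelled *ctl-1* libraries and 974, 1340 and 1004 in the *prdx-2* libraries.

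Among 8 regulators of SKN-1, 2 were called, both higher, 25% against 2.65% of all genes. *wdr-23*, whose product directs SKN-1 to degradation, was at 69.6, 83.1 and 64.7 against 149, 126 and 112 (log2 difference 0.83, limma adjusted p = 0.00737), and wild-type worms at 55.2 to 68.4 lay below all 3 *prdx-2* libraries. *sek-1*, the p38 kinase kinase, was at 39.4, 42.5 and 41.6 against 64.8, 60.7 and 60.3 (0.58, limma adjusted p = 0.0131); it overlaps R03G5.6 on the other strand. Neither was called without labelled *ctl-1* replicate 1 or without *prdx-2* replicate 1 (0.72 to 0.80 and 0.55), nor without both libraries that stood apart. *skn-1* itself was at 240.5, 184 and 149 against 229, 181 and 186, with the groups overlapping (0.08, limma adjusted p = 0.977).

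**Figure D4:**
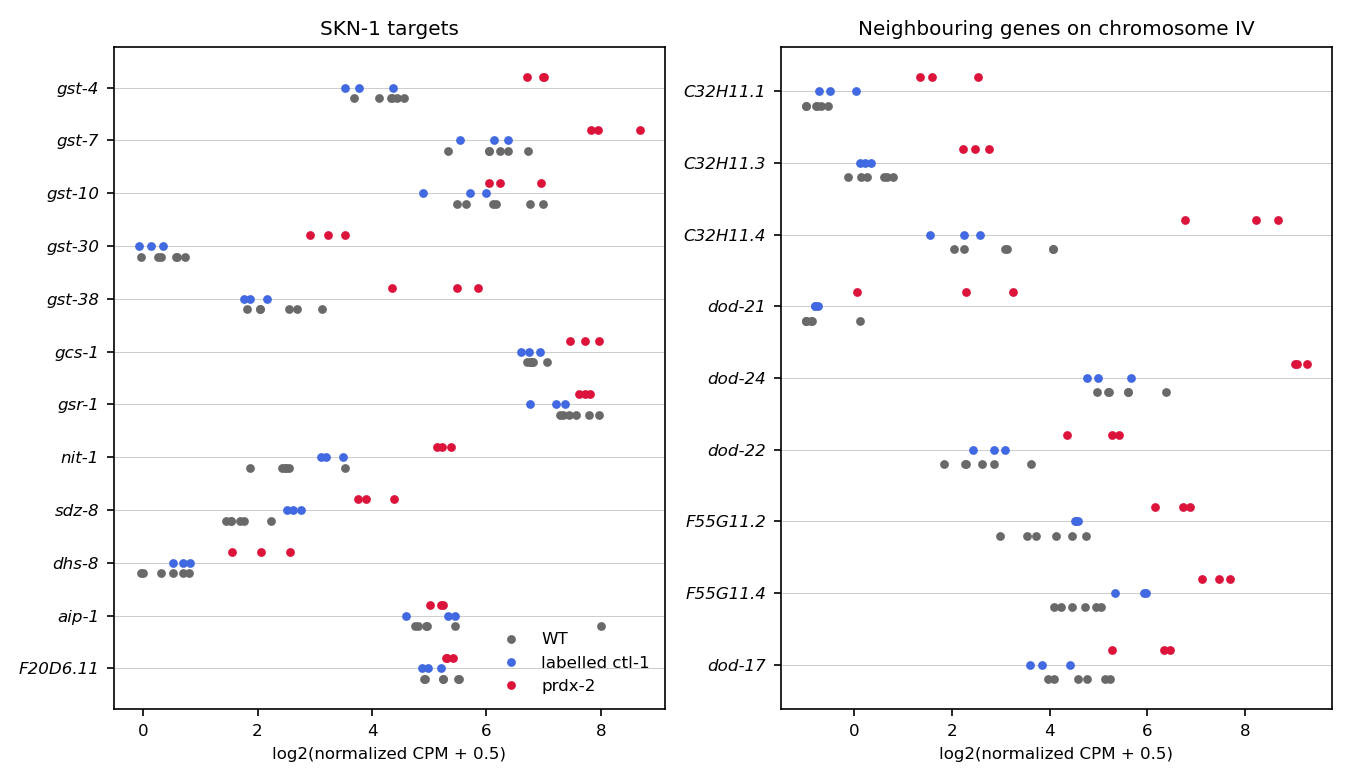
Levels as log2(normalized CPM + 0.5) of the 12 SKN-1 targets (left) and of the 9 called genes of a neighbourhood on chromosome IV (right), 1 point per library for 6 wild-type, 3 labelled *ctl-1* and 3 *prdx-2* libraries. For *gst-4* the *prdx-2* libraries are at 104 to 128 normalized CPM and all others at 23.1 or below; for *dod-24* they are at 524 to 617 and all others at 82.7 or below; *aip-1* and F20D6.11 show little shift.

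The wider families of detoxification enzymes followed. Of 39 glutathione S-transferases, which conjugate glutathione to electrophiles, 14 were higher and none lower, 35.9%, with a median difference of 0.91; 5 of the 39 are also among the SKN-1 targets. Without 1 library the count was 10 to 15, and 9 without both libraries that stood apart. On this log2 scale the largest difference of the family was that of *gst-12*, at 1.31, 1.74 and 2.7 normalized CPM in the labelled *ctl-1* libraries and 74, 34.6 and 20.1 in *prdx-2* worms (log2 difference 4.01, SE 0.60, limma adjusted p = 3.18e-05). *gst-14*, its neighbour, was at 0.103, 0.161 and 0.315 against 12, 7.48 and 2.32 (3.25, SE 0.41). Both were nearly silent in the labelled *ctl-1* and wild-type libraries, and both were highest in *prdx-2* replicate 1. *gst-14*, *gst-12* and *gst-16* lie within 10 kb of each other on chromosome II (13614781 to 13624440), and all 3 were called higher. Reads that the counting could not assign to 1 of these tandem copies are not in the table. *gst-1*, an abundant member, was at 133, 170.0 and 135 against 245, 372 and 353, without overlap and without a call (1.13, limma adjusted p = 0.31). Its wild-type levels ran from 144 to 461, on both sides of the *prdx-2* libraries. The family summed to 598, 648 and 653 in the labelled *ctl-1* libraries and 1697, 2010 and 1445 in *prdx-2* worms, against 624 to 1280 in wild type.

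Of 62 cytochromes P450, which oxidize lipophilic compounds, 11 were higher and 1 lower, 19.4%, with a median of 0.66. The lower gene was *cyp-25A1* (-1.41), called in 3 of 6 fits without 1 library (-1.64 to -1.29). Without labelled *ctl-1* replicate 1 only 3 were higher, and without both libraries that stood apart 6. *cyp-33C8* was at 3.13, 6.97 and 3.71 normalized CPM in the labelled *ctl-1* libraries and 124, 73.4 and 86.7 in *prdx-2* worms, about the wild-type level in the first (3.92 to 7.55) and far above it in the second (log2 difference 4.26, SE 0.42, limma adjusted p = 7.57e-09). *cyp-14A4* was at 0.551, 0.226 and 0.385 against 5.83, 20.3 and 3.8 (3.24, SE 0.61), with much spread among the *prdx-2* libraries. *cyp-13A5* was at 0.895, 1.97 and 2.17 against 11.8, 20.8 and 8.33 (2.66), called in 3 of 6 fits without 1 library (2.31 to 2.95). *cyp-34A9* was at 6.41, 3.32 and 9.21 against 84.3, 27.9 and 22.5 (2.58), called in 2 of 6 (2.01 to 2.95) and not by edgeR (adjusted p = 0.064). *cyp-14A5*, among the most abundant of the family, was at 59.1, 81.3 and 67.8 against 116, 101 and 179, and did not pass (0.89, limma adjusted p = 0.685).

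Of 59 UDP-glucuronosyltransferases, which attach glucuronic acid or glucose to small molecules, 6 were higher and none lower, 10.2%, with a median of 0.25, and 4 without both libraries that stood apart. *ugt-2* was at 3.41, 6.32 and 5.39 against 70.3, 46.2 and 31.6 normalized CPM (log2 difference 3.13, SE 0.30, limma adjusted p = 4.37e-09). *ugt-62* was at 37.5, 57.4 and 41.9 against 158, 349.8 and 201 (2.30, SE 0.48), and *ugt-19* at 9.09, 16.1 and 12 against 59.6, 63.4 and 44.4 (2.15, SE 0.37). For these 3 genes each *prdx-2* library lay above each labelled *ctl-1* and wild-type library. *ugt-25*, at 7.23, 7.84 and 10 against 27, 34.2 and 36.5, was called in 2 of 6 fits without 1 library (1.81 to 2.03). Its wild-type levels, 11 to 32.9, overlapped those of the *prdx-2* libraries. The count over the family was lowest, 4, without labelled *ctl-1* replicate 1. Of 30 short-chain dehydrogenases 2 were higher, *dhs-8* and *dhs-21*, 6.67% against 2.65% of all genes. Neither was called without labelled *ctl-1* replicate 1 (0.55 for *dhs-21* at the lowest).

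The other enzymes of peroxide and superoxide removal mostly did not pass the test. Among the remaining peroxiredoxins, the mitochondrial *prdx-3* was at 115, 138 and 134 in the labelled *ctl-1* libraries and 115, 122 and 115 in *prdx-2* worms, and *prdx-6* at 21.6, 28 and 25.9 against 26.8, 24.5 and 26 (log2 differences -0.13 and 0.04, limma adjusted p = 0.894 and 0.979). Of 7 measured genes of the thioredoxin system, none was called by limma, edgeR or DESeq2, and 1 was at an unadjusted p under 0.05. That gene was *trxr-1*, the selenoprotein thioredoxin reductase, at 117, 142 and 159 against 191, 180.0 and 180.5, groups without overlap (0.41, limma adjusted p = 0.0561). For 4 of the 7 genes, *trxr-1* included, every *prdx-2* library lay above every labelled *ctl-1* library, where 12.7% of all genes did so. Of 5 superoxide dismutases none was called by limma or edgeR, 1 by DESeq2, and 1 was at an unadjusted p under 0.05. The extracellular *sod-4* was at 12.5, 12.6 and 15.7 against 34.4, 27.6 and 34.8 with no overlap (1.22, limma adjusted p = 0.05), the cytosolic *sod-1* at 132, 190.5 and 154 against 164, 181 and 151 (0.07), and the mitochondrial *sod-2* at 67.8, 102 and 90.9 against 83.8, 86.9 and 89.4 (0.01). *sod-3*, the other mitochondrial form, was at 4.92, 12.5 and 9.39 against 18.9, 6.32 and 4.96, overlapping (0.02), and *sod-5* at 0.103, 0.226 and 1.72 against 3.77, 0.812 and 0.978 (1.03, SE 0.71).

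Of 7 measured glutathione peroxidases 2 were called, 28.6% against 2.65% of all genes. Both were higher and both by small differences, and neither was called without both libraries that stood apart. *gpx-1* was at 10.5, 14.1 and 14.4 in the labelled *ctl-1* libraries and 21.4, 24.1 and 19 in *prdx-2* worms (log2 difference 0.71, limma adjusted p = 0.019), and it overlaps *drsh-1* on the other strand. *gpx-2* was at 53.7, 89.1 and 78.2 against 130.3, 111 and 104 (0.67, limma adjusted p = 0.0419, edgeR adjusted p = 0.0568). *gpx-1* was not called without labelled *ctl-1* replicate 1 or *prdx-2* replicates 1 or 2 (0.57 to 0.71), and *gpx-2* was called only without labelled *ctl-1* replicate 2 (0.46 to 0.74 in the other 5 fits). *gpx-8* was the only member with a negative difference, at 0.999, 0.839 and 0.841 against 0.305, 0.353 and 0.434 (-0.69, limma adjusted p = 0.279), and the others lay between 0.08 and 0.74. Beside *gcs-1*, none of the other 7 genes of glutathione synthesis and glutaredoxins was called. Of 8 extracellular peroxidases and dual oxidases none was called by limma, edgeR or DESeq2, with 1 higher at an unadjusted p under 0.05.

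Of 13 measured genes known to respond to intestinal pathogens 4 were higher and none lower, 30.8%, with a median of 0.36, and 3 without both libraries that stood apart. F35E12.5 (*irg-5*), a CUB-like protein induced by *Pseudomonas*, was at 29.6, 14.8 and 7.53 normalized CPM in the labelled *ctl-1* libraries and 85.7, 125 and 202 in *prdx-2* worms (log2 difference 3.07, SE 0.46, limma adjusted p = 3.58e-05). F08G5.6 (*irg-4*) was at 17.4, 16.9 and 17.2 against 102, 104 and 105, with hardly any spread inside either group (2.56, SE 0.54). The wild-type libraries spread more for this gene, from 11.8 to 40.6. C32H11.1 (*irg-6*) was at 0.103, 0.516 and 0.21 against 5.26, 2.05 and 2.5 (2.22, SE 0.33). T24B8.5 (*sysm-1*), a target of the p38 kinase pathway, was at 3.17, 2.03 and 2.03 against 5.22, 23.3 and 26 (2.42). The *sod-1* libraries were at 10.7 to 16.7, above *prdx-2* replicate 1 and wild-type worms (1.59 to 4.51). T24B8.5 was low in *prdx-2* replicate 1 and was called only without that library, and not without any of the other 5 (2.02 to 2.60).

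C32H11.1 belongs to a neighbourhood of CUB-like and *dod* genes on chromosome IV (12912722 to 12978343), which was singled out after its values were seen. Of 14 measured genes there, 9 were higher and none lower, and the median difference was 2.06. Over all genes 2.65% were called. Without both libraries that stood apart 7 were higher, and 6 to 8 without 1 library. C32H11.4 had the largest difference of all genes on the scale of log2(normalized CPM + 0.5), at 5.44, 4.26 and 2.42 normalized CPM in the labelled *ctl-1* libraries and 108, 297 and 408 in *prdx-2* worms (log2 difference 5.76, SE 0.68, limma adjusted p = 4.32e-07). *dod-24* was at 31.5, 50.3 and 26.6 against 537, 524 and 617 (3.98, SE 0.46, limma adjusted p = 3.46e-07). Both were near the wild-type levels in the labelled *ctl-1* libraries (3.62 to 16.4 and 30.7 to 82.7). C32H11.3 was at 0.758, 0.581 and 0.665 against 4.15, 5.01 and 6.26, *dod-21* at 0.0689, 0.0968 and 0.0701 against 0.533, 4.38 and 8.94, and *dod-22* at 4.86, 8 and 6.8 against 20, 38.1 and 42.6. These 6 genes were called in each of the 6 fits without 1 library, the other 3 were not. F55G11.2 (log2 difference 2.04) was called in 1 of them, F55G11.4 (1.68) in 3 and *dod-17* (2.08) in 2. Their differences stayed between 1.47 and 2.46. The 5 genes of the interval without a call were C32H11.5, C32H11.6, *abt-3*, F55G11.7 and F55G11.8.

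C-type lectins, secreted sugar-binding proteins, went in both directions. Of 106 measured, 4 were higher and 5 lower, 8.49%, with 2 to 5 higher and 3 to 5 lower without 1 library, and 5 and 5 without both libraries that stood apart. The fewest higher calls came without labelled *ctl-1* replicates 1 or 3 or *prdx-2* replicates 2 or 3, and the fewest lower calls without *prdx-2* replicate 3. *clec-17* was at 0.93, 0.935 and 1.79 normalized CPM in the labelled *ctl-1* libraries and 27.5, 23.4 and 33.2 in *prdx-2* worms (log2 difference 4.08, SE 0.49, limma adjusted p = 5.99e-07). *clec-3* was at 1.17, 0.871 and 0.946 against 9.98, 13.2 and 14.7 (3.12, SE 0.53); it overlaps C41H7.2 on the opposite strand. On the lower side, *clec-52* was at 12.1, 14.9 and 17.6 against 3.39, 1.2 and 2.72 (-2.46, SE 0.36, limma adjusted p = 3e-05). *clec-47* was at 17.9, 19.6 and 13.7 against 9.45, 2.75 and 0.76 (-2.34), and was not called without *prdx-2* replicate 3 (-1.61) or by edgeR (adjusted p = 0.0648). *clec-61* was at 6.47, 4.97 and 16.3 against 2.21, 1.02 and 0.833 (-2.29); it was called in 2 of 6 fits without 1 library (-2.62 to -1.81) and not by edgeR (adjusted p = 0.068). The other calls were *clec-265* (1.58) and *clec-66* (1.33), each called in 2 of 6 fits without 1 library (1.24 to 2.07 and 1.02 to 1.77), and *clec-57* (-1.80) and *clec-169* (-1.63), called in all 6. *clec-63*, the most abundant of the family, overlapped between the groups at 1817, 1570.0 and 1656 against 1549, 1603 and 1752. Of 31 epidermal antimicrobial peptides 3 were higher, 9.68% against 2.65% of all genes, led by *nlp-28* at 5.37, 13.7 and 8.79 against 87.8, 30 and 38 (2.35). The other 2 were *fipr-13* and *fipr-21*. None was called without labelled *ctl-1* replicate 1 or without both libraries that stood apart (*nlp-28*: 1.90 to 2.67). Of 12 lysozymes 1 was called, 8.33%. This was *ilys-2* at 1.48, 0.613 and 1.54 against 20.6, 6.74 and 1.49, in which *prdx-2* replicate 3 lay among the labelled *ctl-1* libraries. It was called in 2 of 6 fits without 1 library (1.20 to 2.90).

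**Figure D5:**
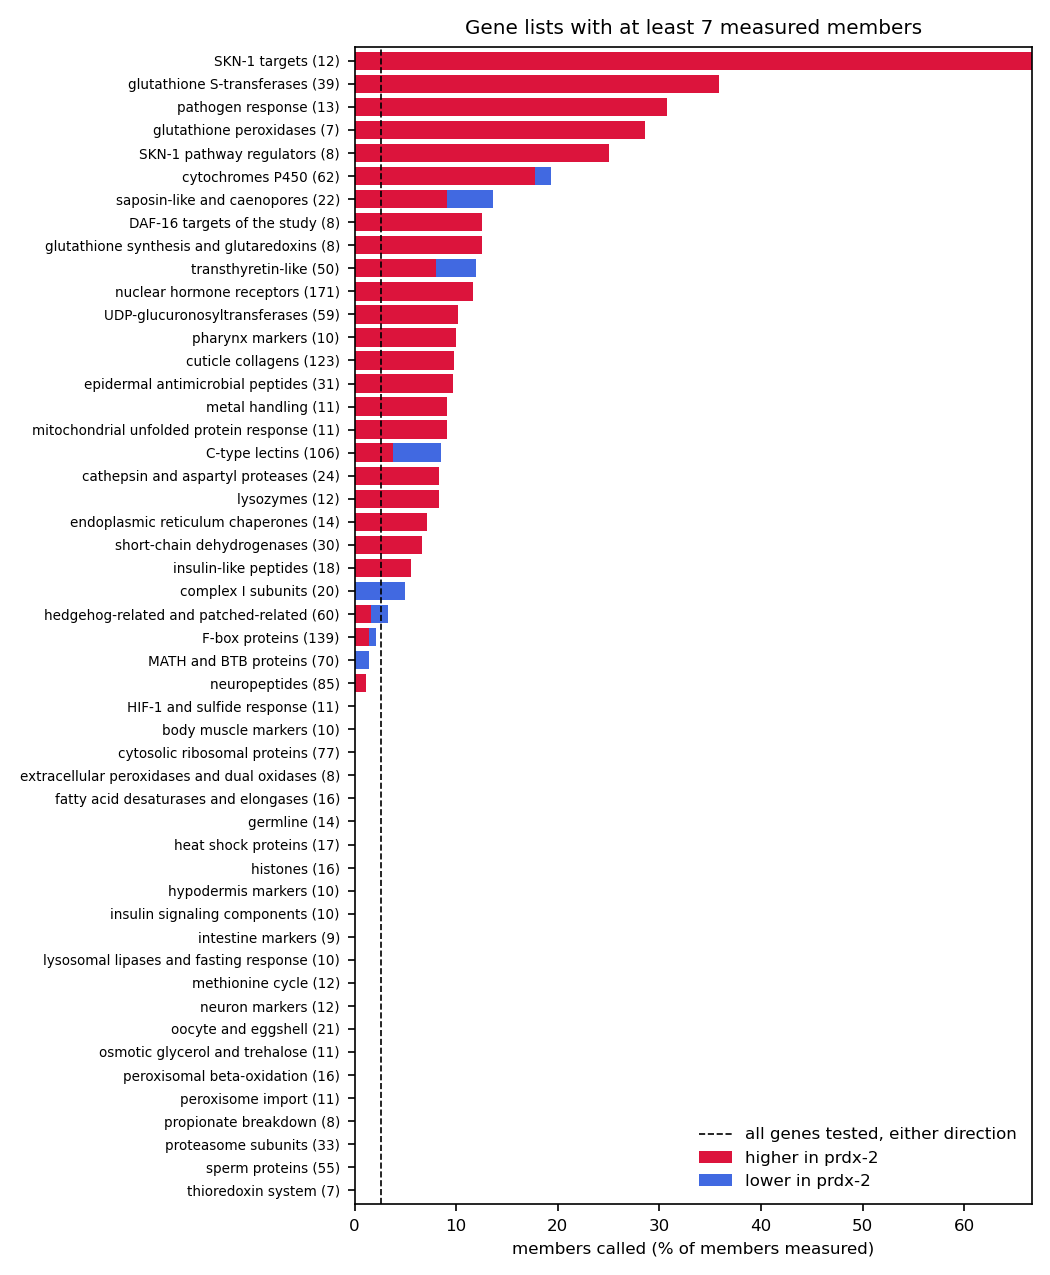
Share of measured members called higher (red) or lower (blue) in *prdx-2*, in percent, for the gene lists with at least 7 measured members, whose number is in parentheses; the dashed line is the 2.65% of all genes. SKN-1 targets (66.7%), glutathione S-transferases (35.9%) and pathogen response genes (30.8%) are at the top, and 22 lists are at 0.

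Of 171 nuclear hormone receptors, ligand-regulated transcription factors of which this worm has an unusually large set, 20 were higher and none lower, 11.7%, with a median of 0.32. The differences were mostly small, and 144 of 171 were positive, where 47.6% of all genes were. The count depended on single libraries, with 4 left without labelled *ctl-1* replicate 1, up to 16 without another library, and 4 without both libraries that stood apart. *nhr-90* was at 3.2, 4.23 and 5.01 against 12.3, 12.3 and 10.7 normalized CPM (log2 difference 1.41, SE 0.19, limma adjusted p = 6.21e-06), and *nhr-120* at 5.44, 5.81 and 8.3 against 12.5, 15.1 and 17.6 (1.16, SE 0.18); both were called in each fit without 1 library. *nhr-61* was at 6.44, 9.39 and 7.53 against 37.3, 21.8 and 14.8 (1.51) and was called in 5 of 6, and *nhr-115* at 1.58, 2.39 and 1.82 against 6.06, 5.61 and 6.01 (1.41) in 1 of 6 (1.30 to 1.54). The lowest difference of *nhr-61* in those fits was 1.17. Singled out after their values were seen, 6 of 7 neighbouring receptor genes on chromosome V (2219004 to 2235180) were called higher, where 2.2% of all genes were. They were *nhr-56*, *nhr-103*, *nhr-18*, *nhr-126*, *nhr-134* and *nhr-96*. Without 1 library 1 to 5 of them were called, the fewest without labelled *ctl-1* replicate 1 or *prdx-2* replicate 1, and none without both libraries that stood apart. *nhr-18* was the only one called in all 6 fits without 1 library. All 7, *nhr-128* included, had differences of 0.64 to 1.11. Reads that the counting could not assign to 1 of these related copies are not in the table. *nhr-49*, an abundant receptor of fat metabolism, overlapped at 111, 95.4 and 91.8 against 109.8, 103 and 100.

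Of 123 cuticle collagens 12 were higher and none lower, 9.76%, with a median of 0.09, and 5 without both libraries that stood apart. *col-19*, a collagen of the adult cuticle, was at 305, 437 and 196 normalized CPM in the labelled *ctl-1* libraries and 1431, 657 and 996 in *prdx-2* worms (log2 difference 1.72, SE 0.33, limma adjusted p = 0.00134). *col-140* was at 621, 1012 and 486 against 2205, 1610.0 and 2107 (1.54, SE 0.31). For both, the *prdx-2* libraries overlapped the wild-type range, 962 to 1495 and 1413 to 2336, and the labelled *ctl-1* libraries lay below it. *col-119* at 321, 440.0 and 182 against 1541, 652 and 867 (1.69) was called in 2 of 6 fits without 1 library (1.34 to 1.98), and *col-152* at 2.07, 1.13 and 1.58 against 5.71, 8.79 and 6.08 (1.82) in none (1.64 to 1.98). The count over the family was 4 to 9 without 1 library, and 4 without labelled *ctl-1* replicates 1 or 3 or *prdx-2* replicate 3. The cuticle genes *sqt-3* at 632, 165 and 550.2 against 62.2, 459 and 358 and *dpy-13* at 782, 314 and 751 against 199, 803 and 625 were lowest in the 2 libraries with low hypodermis sums, and their groups overlapped.

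Among the other genes with large differences, B0205.13 and B0205.14 lie next to each other on chromosome I, and B0205.14 overlaps *srz-85* on the other strand. B0205.13 was at 0.758, 2.1 and 1.33 normalized CPM in the labelled *ctl-1* libraries and 102, 73.8 and 71.1 in *prdx-2* worms (log2 difference 5.49, SE 0.50, limma adjusted p = 1.25e-09), and B0205.14 at 0.172, 0.226 and 0.385 against 31.1, 21.2 and 15.3 (4.87, SE 0.32). Wild-type worms had 1.3 to 6.54 and 0 to 0.347, low as in the labelled *ctl-1* libraries. *cdr-4*, of the cadmium-responsive family, was at 16.8, 35.9 and 21.9 against 308, 305 and 219.5 (3.51, SE 0.67). Wild-type worms spread from 21 to 177 for this gene, below the *prdx-2* libraries. The tubulin gene *tbb-6* was at 14, 16.1 and 18.7 against 320.0, 153 and 183 (3.64, SE 0.92). It was called in 1 of 6 fits without 1 library (3.33 to 3.86) and not by edgeR (adjusted p = 0.0675).

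Of the 12 genes with the largest decrease, 2 encode putative chemoreceptors and were close to absent from the *prdx-2* libraries. *srz-97* was at 2.13, 5.71 and 5.75 normalized CPM in the labelled *ctl-1* libraries and 0.0762, 0 and 0.109 in *prdx-2* worms, beside 0.0466 to 0.166 in wild type. *sri-16*, which overlaps F15H9.9 on the other strand, had 298 reads in the labelled *ctl-1* libraries and 3 in the *prdx-2* libraries, a ratio of 92.2 with a 95% counting interval of 31.2 to 450 (levels 2.65, 3.74 and 3.68 against 0.0381, 0 and 0.0724). F56H6.2 was at 3.03, 4.61 and 5.88 against 0.0762, 0.212 and 0.0724, and F08G2.8 at 21.6, 12.6 and 15.1 against 1.83, 1.62 and 1.96. F13H8.8 was at 49.1, 56.6 and 47.1 against 3.81, 6.6 and 9.56 (log2 difference -2.93, SE 0.28, limma adjusted p = 4e-09). For these 5 genes and Y54G11A.14 the *prdx-2* libraries lay in or beside the wild-type range and the libraries labelled *ctl-1* stood alone, whereas for *prdx-2* it was the reverse. Y69A2AR.12 at 7.71, 8.58 and 5.78 against 0.533, 0.529 and 0.797 and Y69A2AR.25 at 2.96, 2.61 and 2.31 against 0.19, 0.176 and 0.217 had wild-type levels between or nearer to the *prdx-2* side (0.953 to 2.16 and 0.28 to 0.914). Of the 24 genes with the largest differences, 12 in each direction, 21 were called in every fit without 1 library, 21 by edgeR and 23 without both libraries that stood apart.

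Smaller groups had 1 or 2 calls each, 5% to 12.5% of their measured genes, against 2.65% of all genes. The insulin-like peptide *ins-7* was at 1.58, 2.32 and 2.03 against 4.68, 6.81 and 7.89 normalized CPM (log2 difference 1.47), 1 of 18 measured insulin-like genes, and was not called without labelled *ctl-1* replicate 1 or *prdx-2* replicates 2 or 3 (1.32 to 1.42). In *sod-1* libraries it was at 5.05 to 6.9, inside the range of the *prdx-2* libraries. Among 8 DAF-16 targets that the study assayed, and which are therefore no independent evidence, the acyl-CoA synthetase *acs-17* was called at 24.4, 31.3 and 53.1 against 108, 56.3 and 55.4 (1.01), with *prdx-2* replicate 1 far above the other libraries, and not without labelled *ctl-1* replicates 1 or 2 or *prdx-2* replicate 1 (0.69 to 0.94). Of 11 genes of the mitochondrial unfolded protein response only *timm-23*, of the import machinery, was called, at 52.1, 81.3 and 72.1 against 112, 120.0 and 108 (0.74), and not without labelled *ctl-1* replicate 1 (0.56); the chaperone *hsp-6* was at 728, 713 and 585 against 686, 759 and 722. Of 14 genes on the endoplasmic reticulum list the only call was *ckb-2*, a choline kinase and no chaperone, at 6.72, 12.8 and 7.04 against 25.8, 44.1 and 54.6, which was lost in every fit without 1 library (1.93 to 2.47). Its wild-type levels ran from 12.5 to 83, on both sides of the *prdx-2* libraries. Of 24 cathepsin and aspartyl proteases 2 were higher, *asp-14* at 195, 168 and 160.5 against 849, 607 and 576 and *asp-3* at 857, 902 and 1013 against 2060.0, 1724 and 1668, neither of them called without labelled *ctl-1* replicate 1 or without both libraries that stood apart (1.76 and 0.88 at the lowest without 1 library). For *asp-3* the *prdx-2* libraries lay inside the wild-type range of 1171 to 2140. Of 20 complex I subunits 1 was lower, the mitochondrially encoded *nduo-3* at 55.7, 78.1 and 56.6 against 30.3, 28.2 and 20.2 (-1.26), called in 1 of 6 fits without 1 library (-1.38 to -1.09). Of 11 metal handling genes *cdr-1* was higher at 1.34, 0.774 and 0.701 against 4.49, 6.92 and 4.06 (1.97), though not without *prdx-2* replicate 2 (1.76 at the lowest).

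Larger families with calls near the background share were F-box proteins (*fbxa-69* and *fbxa-85* higher and *fbxa-192* lower of 139), MATH and BTB proteins (1 lower of 70), neuropeptides (*nlp-28* of 85) and hedgehog-related and patched-related genes (*ptr-8* higher and *grd-13* lower of 60). The MATH gene *math-14* was at 6.92, 9.71 and 6.45 against 2.55, 1.59 and 2.72 normalized CPM (log2 difference -1.56, SE 0.31) and was called in each fit without 1 library. Other lists lay above the 2.65% of all genes. Of 50 transthyretin-like genes 4 were higher, *ttr-21*, *ttr-17*, *ttr-33* and *ttr-59*, by 0.90 to 1.19, and 2 lower, *ttr-41* and *ttr-46* (12% together). Of 22 saposin-like genes 2 were higher and 1 lower (13.6%), and of 10 pharynx markers 1 and none (*phat-3*, 10%). Without labelled *ctl-1* replicate 1 no higher call was left in the F-box, neuropeptide, hedgehog-related, transthyretin-like or pharynx lists. Without both libraries that stood apart *ttr-33* and *ttr-59* were still called, and no other call of these lists. In the saposin-like family *spp-8* was at 41.2, 62.9 and 77.6 against 346, 124 and 115, *spp-2* at 13.9, 15.4 and 35.5 against 209, 67.3 and 64, both highest in *prdx-2* replicate 1, and *spp-17* at 129.6, 92 and 147 against 37.3, 61 and 57.5 on the lower side. The call of *spp-17* was lost without labelled *ctl-1* replicate 1, labelled *ctl-1* replicate 3 or *prdx-2* replicate 1 (-1.44 to -1.02 without 1 library). Neither of the higher calls was made without labelled *ctl-1* replicate 1 or *prdx-2* replicate 1 (1.02 for *spp-8* and 1.71 for *spp-2* at the lowest).

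Several processes gave no call. Of 77 cytosolic ribosomal proteins, 17 heat shock proteins, 21 oocyte and eggshell genes, 14 germline genes, 6 vitellogenins and 16 histones, none was called by limma, edgeR or DESeq2, and none was at an unadjusted p under 0.05. Of 33 proteasome subunits 1 was lower at an unadjusted p under 0.05, and none was called by the 3 tools. Sperm proteins leaned to 1 side without a call, with 53 of 55 negative, a median of -0.42, 15 lower at an unadjusted p under 0.05 and none called by limma, edgeR or DESeq2. Over all genes 47.6% of differences were positive. The sperm protein sum was 2468, 2138 and 2629 in the labelled *ctl-1* libraries and 1398, 1641 and 2497 in *prdx-2* worms, which overlap. Of 8 genes of propionate breakdown all were negative, 2 at an unadjusted p under 0.05, and none was called by limma, edgeR or DESeq2. *acdh-1*, the first enzyme of the propionate shunt, whose transcript responds to dietary vitamin B12, was at 521, 725 and 420.3 against 316, 55 and 13.6 normalized CPM, with no overlap and a wide range inside the *prdx-2* group (log2 difference -3.11, SE 0.93, limma adjusted p = 0.0655). All 6 compared libraries lay below every wild-type library (741 to 2469) and every *sod-1* library (1029 to 1317). Without both libraries that stood apart *acdh-1* was called (-4.07). Body muscle markers summed to 14819.5 to 19321 in the labelled *ctl-1* libraries and 13559 to 14169.8 in *prdx-2* worms, with 9 of 10 negative, none called by limma or edgeR, 2 lower by DESeq2 and 2 lower at an unadjusted p under 0.05.

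The other lists without a call by limma were short and had few genes at an unadjusted p under 0.05. Peroxisome import had 3 higher of 11 and none called by edgeR or DESeq2, peroxisomal beta-oxidation 1 higher and 2 lower of 16 and by DESeq2 1 and 2, fatty acid desaturases and elongases 2 and 2 of 16 and by DESeq2 1 lower, and lysosomal lipases 1 and 2 of 10 and by edgeR and DESeq2 1 lower. The HIF-1 and sulfide response had 2 higher and 1 lower of 11, with 1 higher by edgeR and by DESeq2, and the methionine cycle 2 and 3 of 12, with 1 higher by edgeR and 2 by DESeq2. Insulin signaling components had 1 higher of 10, osmotic glycerol and trehalose genes 1 of 11 and neuron markers 1 of 12, intestine markers 2 higher and 1 lower of 9, and hypodermis markers (10) and early embryonic genes (5) none, with no call by edgeR or DESeq2 in any of these lists.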

How the data were processed

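Reads of the stranded messenger RNA libraries were mapped by the authors with STAR 2.5.2b on the WBcel235 assembly, assigned to Ensembl genes by its GeneCounts option and normalized by edgeR 3.20.1, per the labels and the study's methods. The deposited signal is TMM-normalized CPM of 14033 genes in 39 libraries after a filter whose rule is not given in the sources used here. Values were whole multiples of 1 read for 99.97% to 100% of genes (tolerance 0.05 read), so reads were recovered, and TMM-normalized CPM recomputed from them gave the deposited signal.

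The 6 libraries were compared by limma 3.58.1 in R 4.3.3 (trend, two-sided) on log2(normalized CPM + 0.5), with all 39 libraries in the fit (31 residual degrees of freedom) and no covariate. This scale understates differences of genes with low values. Genes were called at an adjusted p below 0.05 over all genes, without a minimum fold. edgeR 4.0.16 (quasi-likelihood) and DESeq2 1.42.0 on recovered reads were alternatives, as were other scalings, pseudocounts and filters.

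The members and the 55 gene lists were chosen with earlier results of these data known. Genes were named if they belonged to the catalase, peroxiredoxin, thioredoxin, superoxide dismutase, glutathione peroxidase or SKN-1 target lists, if they were among the 12 called genes with the largest difference in each direction (mean of at least 1, groups not overlapping), if they were among up to 4 called and 2 most abundant members of another list, or if 1 library decided a call. Genes with 3 or fewer reads in a group are given by level and read ratio. Overlapping genes come from the WBcel235 annotation, which placed 13955 of the genes. At this depth 1 read is 0.032 to 0.038 normalized CPM.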

Additional observations from a re-analysis of the deposited data

How the results depend on the processing

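The 309 higher and 63 lower genes became 101 to 234 higher and 30 to 50 lower without 1 library, the fewest without labelled *ctl-1* replicate 1. They became 121 and 31 without labelled *ctl-1* replicate 2 and *prdx-2* replicate 1 together (chosen after seeing the data), 178 and 37 in a fit of the 6 libraries alone, and 129 and 32 at a false discovery rate below 0.01. DESeq2 called 108 lower. With edgeR (TMM or RLE factors), CPM without TMM factors, pseudocounts of 0.1 and 1, a mean of at least 1 and an absolute log2 difference of at least 1, both counts stayed within 1.5 times. No called gene that is named changed its direction. Replicate numbers are shared by the groups but do not pair them: deviations of same-numbered libraries correlated at -0.257, -0.652 and 0.447. A fit of the 6 libraries with the replicate number as a block called 18 and 3 genes.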
